A study of Mus musculus with 6 samples.

Results

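De novo fatty acid synthesis builds long-chain fatty acids from acetyl-CoA. 10 genes of the pathway and its control were followed across 6 mouse liver tumours: Acly, Me1, Acaca, Acacb, Fasn, Elovl6, Scd1, Srebf1, Thrsp and Pnpla3. They were chosen by name. Probes were taken as theirs where the probe's RefSeq accession belongs to 1 of the 10 symbols. All 10 were on the array, with 18 of its 56605 probes, out of 22911 symbols in all. Each tumour was hybridised to its own 1-colour Agilent array, and the 3 groups held 2 tumours each. Epcam-derived tumours, of which 1 group had CLC and the other did not, came from tamoxifen-treated Epcam-AID mice that received a diet with 0.1% DDC for 8 months. Albumin-derived tumours, all without CLC, came from Alb-AID mice 90 weeks of age. Strain was C57BL/6 throughout, and the labels give the alleles by line name only. The abbreviation CLC is left unexpanded in the labels, and all 6 tumours are labelled hepatocellular carcinoma (HCC). Ductular progenitor cells are the stated origin of the Epcam-derived tumours. DDC is a liver toxin used to set off ductular reactions, through its block of heme formation. Origin, tamoxifen and diet differ together between the 2 labelled origins, and only the Albumin-derived mice have a stated age. The labels name 1 mouse for each tumour and do not say whether the mice of a group were different animals, so p-values measure the spread between these samples only.

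In the liver, citrate leaves the mitochondria and is split to acetyl-CoA, which is carboxylated to malonyl-CoA and then joined into palmitate. Elongation and desaturation turn palmitate into the fatty acids that are stored as triglyceride. Insulin acts on the pathway through the transcription factor SREBP1c, an Srebf1 product, and sugars act through ChREBP, the product of Mlxipl. The pathway is known for its activity in fatty liver and in many liver cancers.

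Signal is given as log2 of the processed spot intensity minus the array's own 75th percentile, so 0 marks the 75th percentile of an array and 1 unit is a doubling. A level can be set against the same probe on another array, not against another probe. That percentile was 315 and 488 intensity units in tumours with CLC, 424 and 457 in CLC-free Epcam-derived tumours, and 285 and 306 in Albumin-derived tumours. Between 52.0% and 64.6% of probes were well above background, with the lowest share on the array of the tumour with CLC replicate 1. 0 spots were saturated. The header barcodes put the arrays on 2 slides. Slide 1 held both Albumin-derived tumours and the tumour with CLC replicate 1, and slide 2 held the other 3. All 10 hepatocyte markers examined, such as Alb and Apoa1, were well above background on all 6 arrays. The number of arrays limits the precision. All 18 probes of the 10 genes were well above background on all 6 arrays. In bulk tumours, fewer cells of a type and less RNA per cell cannot be told apart.

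Fasn, the synthase that joins malonyl-CoA into palmitate, and Acly, which splits citrate, showed the pattern that most of the 10 genes shared. Fasn had log2 signals of 8.14 and 6.65 in Epcam-derived tumours with CLC (replicates 1 and 2 in this order here and below), 6.61 and 6.62 in CLC-free Epcam-derived tumours, and 6.02 and 6.59 in Albumin-derived tumours. The tumour with CLC replicate 1 stood 2.82-fold above the next array, and 4 of the other 5 arrays lay close together. Acly measured 6.57 and 4.95 in tumours with CLC, 4.77 and 4.603 in CLC-free Epcam-derived tumours, and 5.005 and 5.20 in Albumin-derived tumours. Here too the tumour with CLC replicate 1 was highest, by 2.59-fold over the next array, while its group partner lay below Albumin-derived replicate 1. Both Acly probes put the same array highest.

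**Figure D1:**
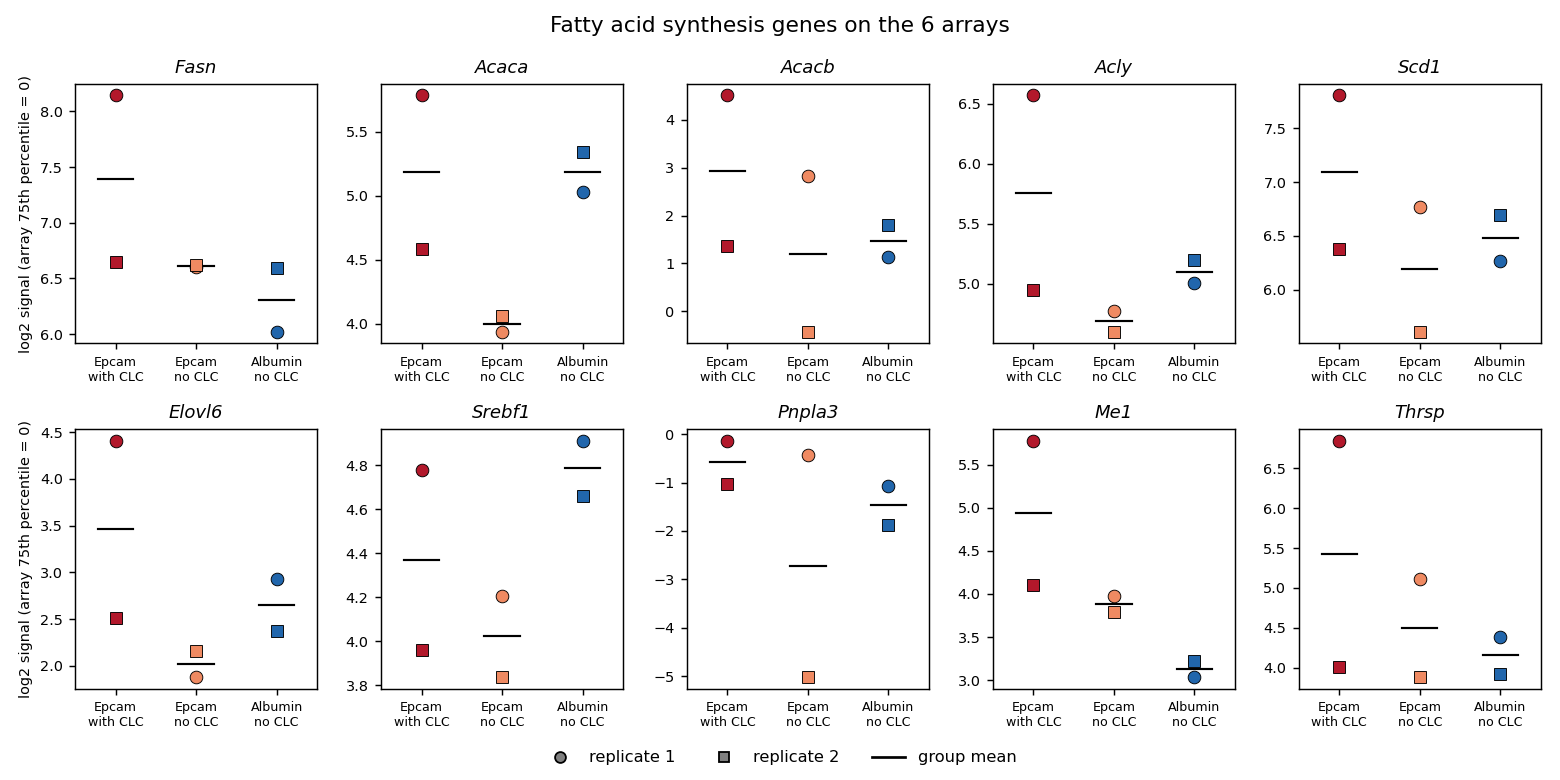
Log2 signal of the 10 genes on the 6 arrays, with 0 at each array's 75th percentile. Each panel is 1 gene with its own vertical scale, points are tumours (circles replicate 1, squares replicate 2) and bars are group means. The tumour with CLC replicate 1 is the highest of the 6 arrays for 9 genes, and for Srebf1 Albumin-derived replicate 1 is.

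Acaca and Acacb encode the 2 acetyl-CoA carboxylases, the first of which makes the malonyl-CoA for synthesis and the second the malonyl-CoA that restrains mitochondrial fatty acid uptake. Acaca signals were 5.79 and 4.58 in tumours with CLC, 3.94 and 4.06 in CLC-free Epcam-derived tumours, and 5.03 and 5.34 in Albumin-derived tumours. The 2 Epcam-derived tumours without CLC were the lowest arrays, and all 4 Acaca probes placed them below both of the other groups. The brighter Acacb probe gave 4.51 and 1.36 in tumours with CLC, 2.82 and -0.43 in CLC-free Epcam-derived tumours, and 1.13 and 1.79 in Albumin-derived tumours. Within each Epcam-derived group the tumours differed by 8.91-fold with CLC and 9.50-fold without it, so the spread within a group was wider than any difference between groups. The second Acacb probe did not show that spread. It gave 0.09 and 1.04 with CLC, 1.34 and 1.06 in CLC-free Epcam-derived tumours, and 0.08 and 0.15 in Albumin-derived tumours, and put the tumours with CLC below those without. Acacb is therefore uncertain, and it was the only one of 6 genes with several probes whose probes gave opposite signs for that difference.

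Elovl6 lengthens palmitate to stearate, and Scd1 desaturates stearate to oleate. Elovl6 had signals of 4.41 and 2.51 in tumours with CLC, 1.88 and 2.16 in CLC-free Epcam-derived tumours, and 2.93 and 2.37 in Albumin-derived tumours. Again 1 tumour with CLC was far above the rest, by 2.79-fold over the next array. Scd1 measured 7.80 and 6.38 in tumours with CLC, 6.77 and 5.61 in CLC-free Epcam-derived tumours, and 6.26 and 6.69 in Albumin-derived tumours. Its groups overlapped in all 3 comparisons, with the tumour with CLC replicate 1 highest and Epcam-derived without CLC replicate 2 lowest.

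Me1, the malic enzyme, supplies NADPH for synthesis, and is also a target of the antioxidant regulator NRF2. On its brighter probe the 3 groups did not overlap, with tumours with CLC highest and Albumin-derived tumours lowest, as was true of Fasn by margins of 0.02 to 0.05. Signals were 5.78 and 4.10 in tumours with CLC, 3.98 and 3.79 in CLC-free Epcam-derived tumours, and 3.04 and 3.23 in Albumin-derived tumours. A second Me1 probe kept both tumours with CLC above the Albumin-derived ones, at 4.98 and 2.58 against 2.42 and 2.36, but its values of 2.86 and 2.31 in CLC-free Epcam-derived tumours overlapped both groups.

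Srebf1, which encodes the transcription factor SREBP1, did not share the pattern. It measured 4.78 and 3.96 in tumours with CLC, 4.21 and 3.84 in CLC-free Epcam-derived tumours, and 4.91 and 4.66 in Albumin-derived tumours. The highest array was Albumin-derived, and the whole range over 6 arrays was 1.07, the smallest of the 10 genes. Thrsp, the thyroid hormone-responsive Spot 14 protein that promotes lipogenesis, had 6.85 and 4.01 in tumours with CLC, 5.11 and 3.89 in CLC-free Epcam-derived tumours, and 4.39 and 3.92 in Albumin-derived tumours. Replicate 1 was the higher tumour in all 3 groups, and the groups overlapped. Pnpla3, a lipase of lipid droplets that SREBP1c induces, had -0.13 and -1.03 with CLC, -0.44 and -5.01 in CLC-free Epcam-derived tumours, and -1.08 and -1.87 in Albumin-derived tumours. Its 2 probes agreed that Epcam-derived without CLC replicate 2 was lowest, 23.8-fold below its group partner on the brighter probe. That fold rests on a dim value, 14.1 intensity units before scaling, against 83.9 to 313 on the other arrays.

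**Figure D2:**
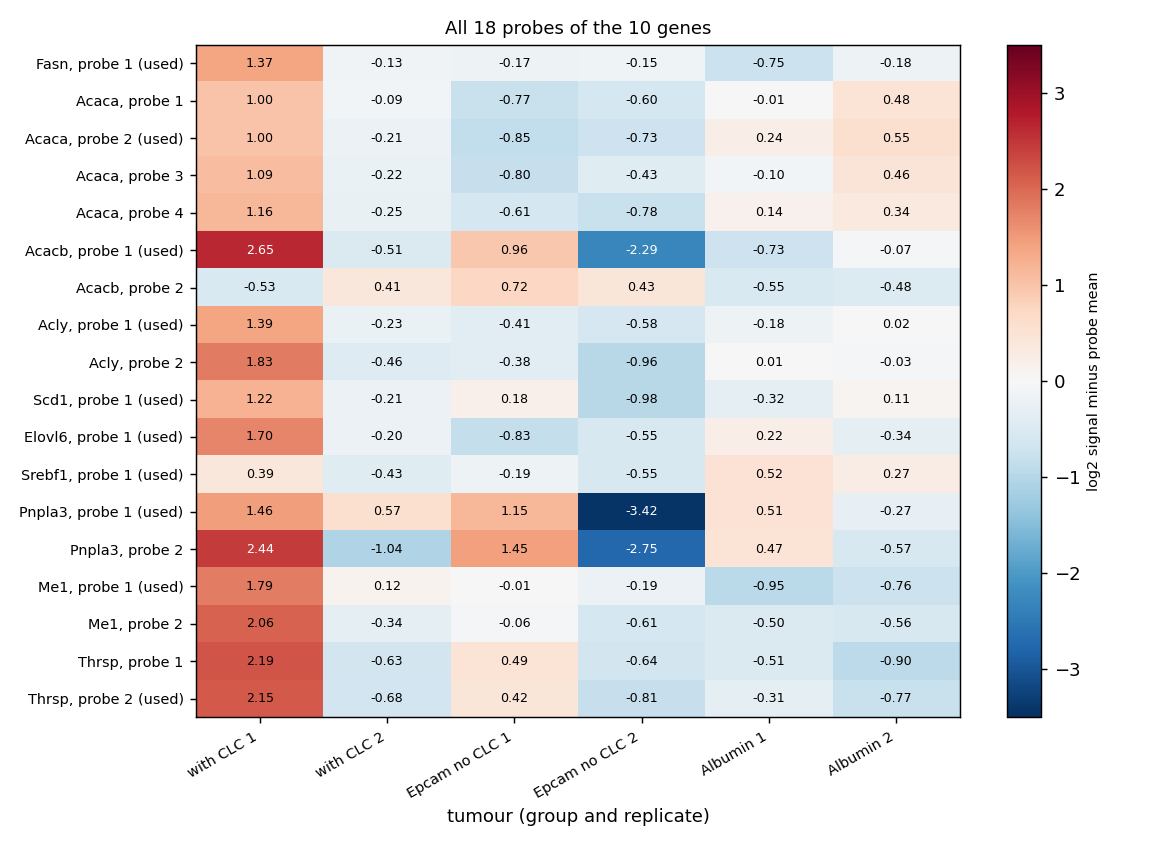
Log2 signal of all 18 probes minus the probe's mean over the 6 arrays, 1 row a probe and 1 column a tumour, with the probe used for each gene marked. The tumour with CLC replicate 1 is the highest array for 16 probes, and the second Acacb probe and the Srebf1 probe are the exceptions.

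The promoters of Fasn and Thrsp are shown because these genes were highest on the same array, and that of Me1 because its 4 Epcam-derived values lay above both Albumin-derived ones as well. Each is the RefSeq window from 250 bases before to 50 bases after the gene's start, 5′ to 3′ along the gene. Capitals mark matches on either strand to the CCAAT box (CCAAT), the GC box (GGGCGG) and the core of the antioxidant response element (TGACNNNGC).
Fasn (GRCm38.p6, chr11:120824498-120824797, minus strand): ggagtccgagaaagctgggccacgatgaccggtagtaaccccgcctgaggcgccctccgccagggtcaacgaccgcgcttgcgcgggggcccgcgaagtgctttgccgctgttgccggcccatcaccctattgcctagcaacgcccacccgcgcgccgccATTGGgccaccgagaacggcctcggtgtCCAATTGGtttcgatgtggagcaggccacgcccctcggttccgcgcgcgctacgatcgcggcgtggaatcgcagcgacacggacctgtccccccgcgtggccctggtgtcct
Thrsp (GRCm38.p6, chr7:97417501-97417800, minus strand): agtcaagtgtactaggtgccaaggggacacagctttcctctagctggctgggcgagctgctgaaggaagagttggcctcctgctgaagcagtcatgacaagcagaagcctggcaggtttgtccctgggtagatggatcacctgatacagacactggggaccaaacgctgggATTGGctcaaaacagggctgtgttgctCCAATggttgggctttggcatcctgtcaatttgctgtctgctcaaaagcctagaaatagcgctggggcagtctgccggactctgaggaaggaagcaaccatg
Me1 (GRCm38.p6, chr9:86695865-86696164, minus strand): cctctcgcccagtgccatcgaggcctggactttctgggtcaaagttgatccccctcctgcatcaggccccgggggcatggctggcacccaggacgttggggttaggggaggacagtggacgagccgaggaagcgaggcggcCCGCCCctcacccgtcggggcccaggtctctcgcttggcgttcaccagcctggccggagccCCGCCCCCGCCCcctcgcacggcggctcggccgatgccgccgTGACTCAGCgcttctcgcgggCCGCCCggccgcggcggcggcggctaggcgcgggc

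Windows were found for 9 of the 10 genes, 12 windows in all, with 3 for Srebf1 and 2 for Me1. CCAAT was present in 8 of the 12 windows, of Acacb, Acly, Fasn, Me1 (its second window), Pnpla3, Srebf1 and Thrsp, and in 37.4% of 32851 windows of the same length. Fasn held 3 matches, 2 of them overlapping on opposite strands, and Thrsp held 2. GGGCGG was present in 5 of the 12 windows, of Acly, Me1, Pnpla3 and Srebf1, and in 35.7% of all windows. The antioxidant core was matched for Me1 only, as TGACTCAGC from base -6 relative to its start, and in 12.4% of all windows. 0 of the 12 windows matched the sterol element TCACNCCAC (1.24% of all windows), the E-box CACGTG (7.15%) or the LXR element, AGGTCA repeated after any 4 bases (0.0152%). A match is a run of letters, not a shown binding site, and these windows are short.

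The tumours with CLC differed from each other across the 10 genes. The tumour with CLC replicate 1 was above replicate 2 for all 10 genes, by 0.82 (Srebf1) to 3.16 (Acacb) on the log2 scale, with a median of 1.56. Over all features the median of that difference was -0.02. For 8 of the 10 genes it exceeded 2-fold, as it did for 6.54% of all features. Thrsp stood at 7.13-fold, Elovl6 at 3.72-fold, Me1 at 3.19-fold and Acly at 3.07-fold. 9 of the 10 genes had their highest signal on this array, where 13.3% of all features did. Low values were less uniform: Epcam-derived without CLC replicate 2 was the lowest array for 6 genes, against 14% of all features. Both are statements on single tumours and have no replicate.

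Setting tumours with CLC against CLC-free ones of the same Epcam-derived line and diet asks what goes with CLC. All 10 genes had higher mean signal with CLC, as did 43.1% of all features, with a median log2 difference of 1.06 for the 10 genes and -0.06 for all 27412 features. None passed limma's threshold (adjusted p under 0.05 over all features), nor did any feature of the array (0%). At an unadjusted p under 0.05 there was 1 of the 10, Acaca, against 3.48% of all features. Acaca differed by 1.18 ± 0.44 (log2, SE, n = 2 each), a fold of 2.27, and Elovl6 by 1.44 ± 0.64, a fold of 2.72 (limma, adjusted p = 0.999 for both). Acly was 1.07 ± 0.54, Me1 1.06 ± 0.56, Scd1 0.90 ± 0.61, Fasn 0.78 ± 0.53 and Srebf1 0.35 ± 0.36 higher on that scale. The estimates for Pnpla3, 2.15 ± 1.43, and Acacb, 1.74 ± 1.39, were larger and less precise. Pnpla3 was 1.11 with normexp background correction and Acacb 0.55 with the mean of its probes. The groups did not overlap for 5 genes, all higher with CLC, where 10.3% of all features did so, and 0 lower, where 19.8% did. The margin between the groups was 0.52 for Acaca, 0.36 for Elovl6, 0.18 for Acly, 0.13 for Me1 and 0.02 for Fasn. The second probes of Acly and Me1 did overlap. On that of Acly, at 0.40 and -1.88 with CLC against -1.81 and -2.39 in CLC-free tumours, replicate 2 with CLC lay between the CLC-free pair of values.

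**Figure D3:**
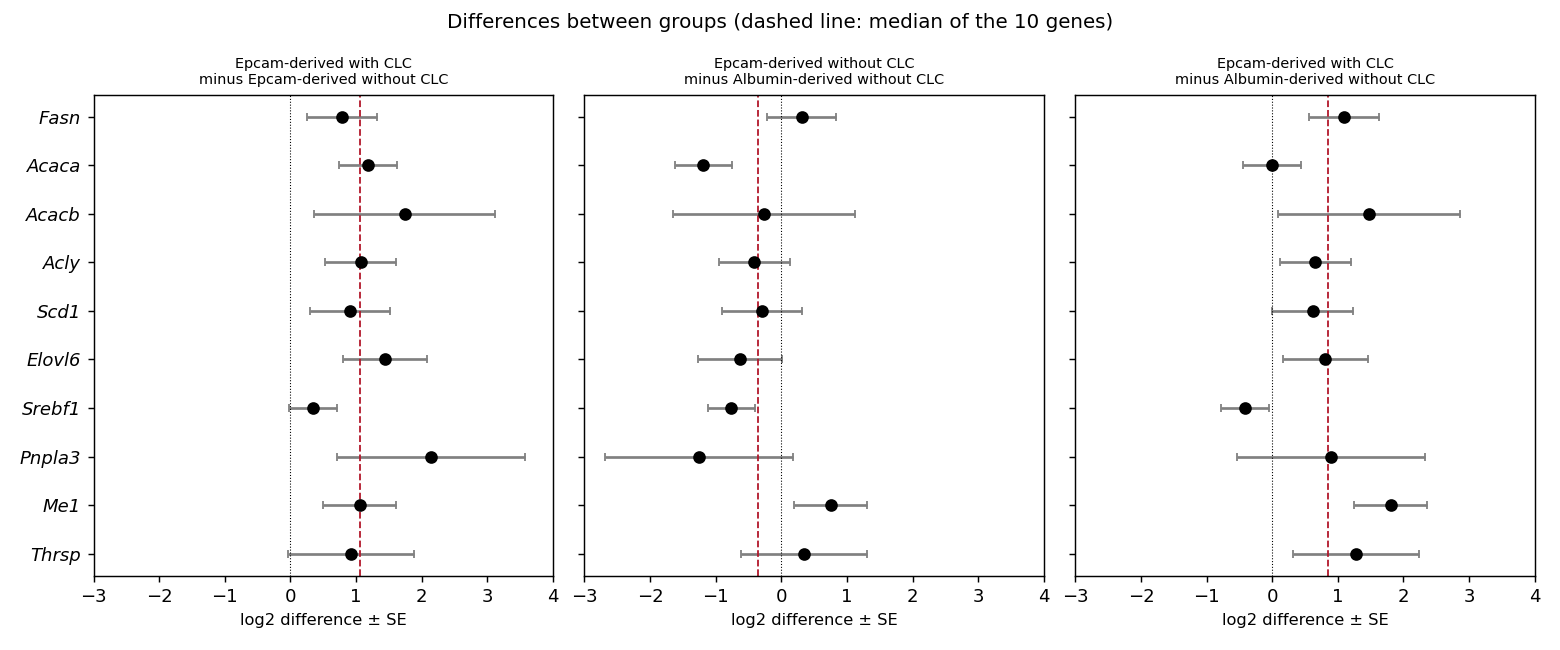
Log2 difference of each gene in the 3 comparisons, first group minus second, with limma's standard error (n = 2 each) and the median of the 10 genes as a dashed line. The medians are 1.06 with against without CLC, -0.35 for CLC-free Epcam-derived against Albumin-derived tumours, and 0.85 for tumours with CLC against Albumin-derived tumours.

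The size of that difference depended on 1 tumour. Without the tumour with CLC replicate 1 the median of the 10 genes was 0.20, with 8 genes higher, and without replicate 2 it was 1.89. Taken alone against the 2 tumours without CLC, replicate 2 differed by 0.03 for Fasn, 0.19 for Scd1, 0.22 for Me1, 0.26 for Acly, 0.49 for Elovl6 and 0.58 for Acaca. Replicate 1 alone differed by 1.53 for Fasn, 1.62 for Scd1, 1.89 for Me1, 1.88 for Acly, 2.39 for Elovl6 and 1.79 for Acaca. The brighter Pnpla3 probe differed by 2.59 with replicate 1 alone and 1.70 with replicate 2 alone, but by -0.14 without Epcam-derived without CLC replicate 2, where the median of the 10 genes was 0.56. The second Pnpla3 probe, at 1.35 with both tumours, differed by 3.09 with replicate 1 alone and -0.39 with replicate 2 alone, and by -0.75 without that CLC-free tumour. The 2 probes therefore gave opposite signs with replicate 2 alone. Replicate 1 lies on slide 1 and all other Epcam-derived tumours on slide 2. The median was 0.20 too within slide 2 or with slide as a block, because both then rest on replicate 2. Whether slide had a part in the high values of replicate 1 was not tested. It differed from the Albumin-derived tumours of its own slide by a median of 1.61.

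**Figure D4:**
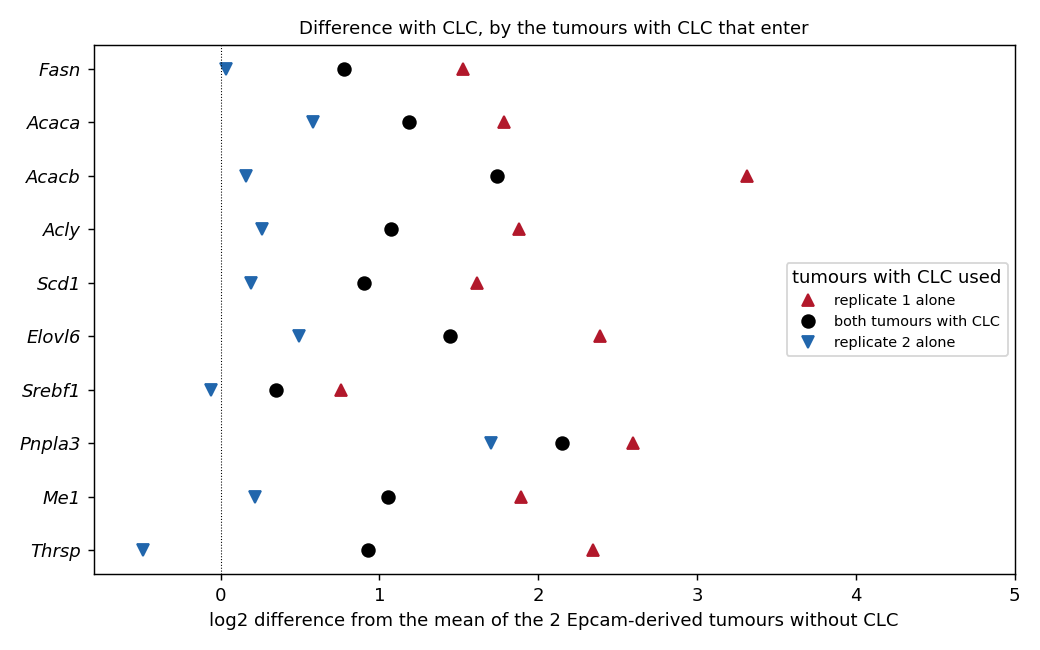
Log2 difference of each gene between tumours with CLC and the mean of the 2 Epcam-derived tumours without CLC, using replicate 1 alone, both tumours or replicate 2 alone. For Fasn the 3 values are 1.53, 0.78 and 0.03, and for Acaca 1.79, 1.18 and 0.58.

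The 2 CLC-free groups, Epcam-derived and Albumin-derived, were set against each other to ask what differs by labelled origin. The median log2 difference of the 10 genes was -0.35, against 0.06 for all features. 7 genes were lower and 3 higher, and with the authors' table of scaled values, which moves the median of all features to 0.37, Scd1 and Acacb changed sign and 5 were lower. Relative to the median of all features the 10 genes stood at -0.41 under both scalings, which 1 factor per array cannot change. That value was -0.21 with quantile normalisation and -0.07 with normexp background correction. None of the 10 passed (limma, smallest adjusted p = 0.226, Acaca), while 0.244% of all features did. At an unadjusted p under 0.05 there was 1 of 10, also Acaca, against 20% of all features. Acaca was lower in Epcam-derived tumours by a log2 difference of -1.19 ± 0.44 (SE, n = 2 each), Srebf1 by -0.76 ± 0.36, Elovl6 by -0.63 ± 0.64 and Acly by -0.41 ± 0.54. These 4 genes did not overlap, against 24.8% of all features in that direction. Me1 differed by 0.75 ± 0.56 and Fasn by 0.31 ± 0.53 the other way, without overlap, as did 30.4% of all features. Acly was -0.09 and Fasn 0.78 with quantile normalisation, and Me1 was 0.47 with the mean of its probes. With only 10 genes, the counts of 2 higher and 4 lower are both close to those shares. Without Epcam-derived without CLC replicate 2 the median was 0.29. These groups share no slide, so slide, origin and diet cannot be told apart. A fit with slide as a block, which links the slides through the tumours with CLC, gave a median of 1.24.

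Epcam-derived tumours with CLC and Albumin-derived tumours differ in origin, diet and CLC together. This comparison shares its arrays with both others, so its values are not separate evidence. The median of the 10 genes was 0.85, against -0.01 for all features, with 8 genes higher and with Srebf1 and Acaca lower, of which Acaca changed sign with quantile normalisation (0.36). None passed (limma, smallest adjusted p = 0.229, Me1), while 0.062% of all features did, and at an unadjusted p under 0.05 there was 1 of 10 against 16%. Me1 was 3.497-fold higher in tumours with CLC, a log2 difference of 1.81 ± 0.56 (SE, n = 2 each). Fasn differed by 1.09 ± 0.53, Thrsp by 1.28 ± 0.96, Acaca by -0.00 ± 0.44 and Srebf1 by -0.41 ± 0.36. Groups did not overlap for 3 genes, Fasn, Pnpla3 and Me1, all higher, as for 23.8% of all features, and 0 lower, against 27%. The second Pnpla3 probe did overlap here, at -0.04 and -3.51 with CLC against -2.00 and -3.04 in Albumin-derived tumours. With replicate 1 of the tumours with CLC left out the median was -0.12 and 3 genes were higher, and Me1 then differed by 0.97.

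Genes around the 10 were followed through lists of pathway neighbours. No member of any list passed limma's threshold in any comparison. Of 17 other measured genes of fatty acid handling, mostly activating, elongating and desaturating enzymes, 13 were higher with CLC than without (43.1% of all features). The median log2 difference of the 17 was 0.57. Slc25a1, Mlycd and Me2, which do none of these steps, are on the list and were among the 13. Without the tumour with CLC replicate 1, 12 were higher, with a median of 0.24. 1 had an unadjusted p under 0.05 (3.48% of all features), Elovl1, an elongase of very long chains, at 0.90 ± 0.28 (SE, n = 2 each). 11 of the 17 were highest on the array of the tumour with CLC replicate 1, against 13.3% of all features. Scd2, the desaturase isoform known from brain and fetal liver, differed from Scd1 in order. Its signals were 2.94 and 4.55 with CLC, 4.96 and 5.02 in CLC-free Epcam-derived tumours, and 4.95 and 4.83 in Albumin-derived tumours, so the array highest for Scd1 was lowest for Scd2. Elovl5, an elongase of polyunsaturated fatty acids, was chosen after its values were seen. It had 6.12 and 4.02 with CLC, 4.24 and 3.07 in CLC-free Epcam-derived tumours, and 4.03 and 3.07 in Albumin-derived tumours, again with 1 tumour with CLC far above the others.

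The control genes of SREBP1 and ChREBP had a median close to that of all features. Of 22 measured, 13 were higher with CLC (43.1% of all features), the median was 0.07 and 0 had an unadjusted p under 0.05. On the tumour with CLC replicate 1, 5 (22.7%) were highest, against 13.3% of all features. Mlxipl had 4.86 and 4.50 with CLC, 4.95 and 4.70 in CLC-free Epcam-derived tumours, and 5.84 and 5.71 in Albumin-derived tumours, so the 4 Epcam-derived tumours lay below both others. The Epcam-derived over Albumin-derived difference in CLC-free tumours was -0.95 ± 0.27 (SE, n = 2 each; limma, adjusted p = 0.166). Scap, which escorts SREBP to its activating proteases, had 2.95 and 2.48 with CLC, 3.14 and 2.83 in CLC-free Epcam-derived tumours, and 4.58 and 4.80 in Albumin-derived tumours. That was a difference of -1.70 ± 0.30 without CLC (limma, adjusted p = 0.0870). Insig1, which retains SREBP in the endoplasmic reticulum and is itself an SREBP target, had 1.30 and 1.18 with CLC, 0.70 and 0.88 in CLC-free Epcam-derived tumours, and 1.82 and 1.40 in Albumin-derived tumours. Between the CLC-free groups the list had 10 higher and 12 lower, with 1 and 6 at an unadjusted p under 0.05, which 20% of all features reached.

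Many genes listed for the feed of sugar to acetyl-CoA had the same highest array as 9 of the 10 genes. Besides enzymes of that route, the list includes transporters such as Slc2a2, a regulator, and Cs, which uses acetyl-CoA. 10 of 13 were highest on the tumour with CLC replicate 1, against 13.3% of all features. With CLC 11 were higher than without, against 43.1% of all features, with a median of 0.59 and 0 at an unadjusted p under 0.05. Without that tumour 6 of 13 were higher and the median was -0.03. Pklr, the liver pyruvate kinase and a ChREBP target, had 1.55 and -0.59 with CLC, -0.68 and -1.30 in CLC-free Epcam-derived tumours, and 0.21 and 1.00 in Albumin-derived tumours. The tumour with CLC replicate 1 was its highest array, and its group partner lay among the other groups.

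Genes listed for NADPH supply were mostly higher in Epcam-derived tumours, without passing the test. The list includes pentose phosphate enzymes that do not themselves make NADPH, such as Tkt. Of 8 measured, 6 had higher means in CLC-free Epcam-derived than in Albumin-derived tumours, with a median of 0.80, against 53.5% of all features with higher means. At an unadjusted p under 0.05 there were 4 higher and 1 lower, against 20% of all features in either direction. The lower one was Pgls, at -0.89 ± 0.28 (SE, n = 2 each). In tumours with CLC, 5 of the 8 had higher means than in Albumin-derived tumours, against 49.3% of all features. G6pdx, which opens the pentose phosphate pathway, had 1.67 and 2.94 in CLC-free Epcam-derived tumours, against -0.09 and 0.84 in Albumin-derived tumours. Tkt, the transketolase of that pathway, had 5.89 and 6.04 against 4.42 and 4.46, a difference of 1.52 ± 0.35 (SE, n = 2 each; limma, adjusted p = 0.122). With against without CLC, in Epcam-derived tumours, the list split evenly, with 4 higher, 4 lower and a median of 0.08, or 1 higher, 7 lower and -0.31 without the tumour with CLC replicate 1. Of 12 glycerolipid assembly genes, 9 were higher with CLC than without (43.1% of all features), with a median of 0.34, and 7 with a median of 0.07 without the tumour with CLC replicate 1. Mogat1, a monoacylglycerol acyltransferase, had 1.18 and -1.37 with CLC, -3.60 and -2.45 in CLC-free Epcam-derived tumours, and -3.40 and -3.95 in Albumin-derived tumours, and its groups with and without CLC did not overlap.

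**Figure D5:**
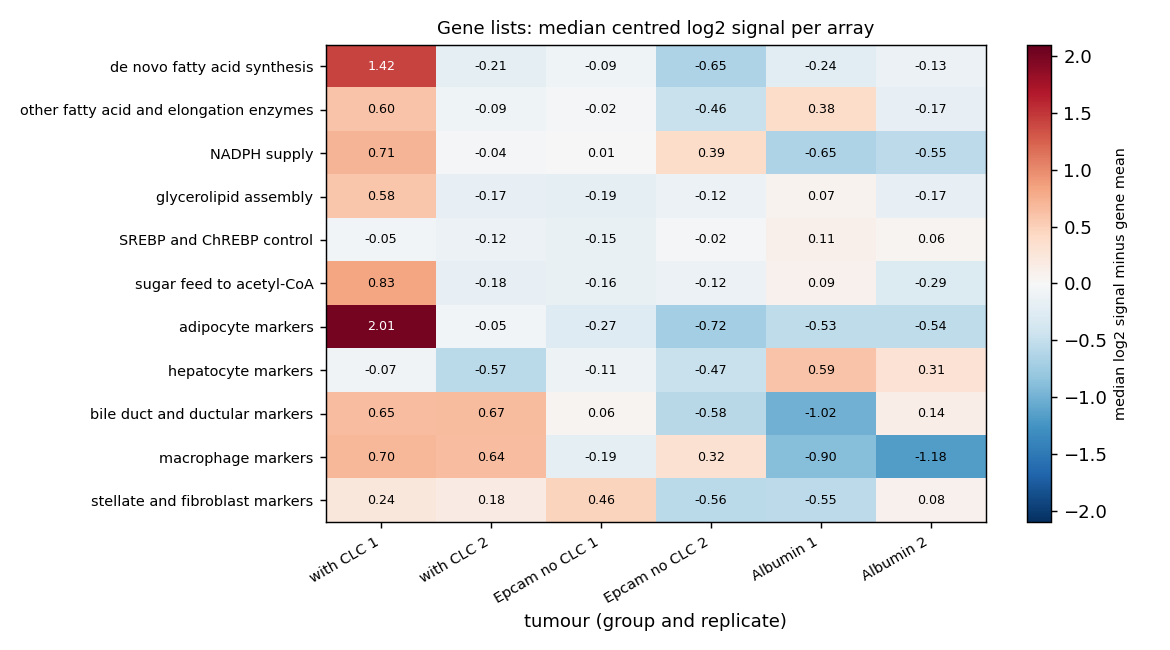
Median over each gene list of the log2 signal minus the gene's mean over 6 arrays, 1 row a list and 1 column a tumour. The 10 genes stand at 1.42 in the tumour with CLC replicate 1 and between -0.65 and -0.09 elsewhere, the sugar list at 0.83 in that tumour, and the SREBP and ChREBP control list between -0.15 and 0.11 in all 6.

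Some markers of other cells were high in the same tumour. Of 12 adipocyte markers 9 were measured, and 7 were well above background on all arrays. On the tumour with CLC replicate 1, 5 of the 9 were highest, against 13.3% of all features. Of these 5, Cfd was well above background on only 2 arrays, so the filter kept it through 1 group. Its highest values were the 2 with CLC, -2.92 and -4.53, so the filter helped to place it in this count. Adipoq and Plin1, which define adipocytes, were not well above background on any array. The summed signal of the measured markers, as multiples of the array's 75th percentile, was 355 and 94.1 with CLC, 74.97 and 160 in CLC-free Epcam-derived tumours, and 64.7 and 49.3 in Albumin-derived tumours. Bright probes weigh most in such a sum. Most of the 160 came from Car3, seen after the fact, at a log2 signal of 7.14 on that array. Plin4, a droplet coat protein, had 4.63 and 0.95 with CLC, 2.31 and -0.58 in CLC-free Epcam-derived tumours, and -2.99 and -3.47 in Albumin-derived tumours, so its 4 Epcam-derived values lay above both others. Not all adipocyte markers were high with CLC, and 2 that were not were chosen after their values were seen. Adrb3, the beta-3 adrenergic receptor, had -1.07 and -1.12 with CLC, 0.99 and 2.33 in CLC-free Epcam-derived tumours, and -2.64 and -1.89 in Albumin-derived tumours. Lep, which encodes leptin, was lowest on the tumour with CLC replicate 1, at -1.04. Macrophage, stellate and hepatocyte markers had 3 of 8, 2 of 8 and 1 of 10 members highest on that array, against 13.3% of all features. Bile duct markers had 2 of 10, with array medians of 0.65 and 0.67 in the tumours with CLC, where those of the 10 genes were 1.42 and -0.21. In Epcam-derived tumours 9 of these 10 markers were higher with CLC than without, against 43.1% of all features, with a median of 1.45. At an unadjusted p under 0.05 there were 4, against 3.48% of all features. Without the tumour with CLC replicate 1, 10 of 10 were higher, with a median of 1.45. Epcam and Krt7 were well above background on only 4 arrays. The filter keeps a dim marker that is above background in 1 group only, and a marker kept through the group with CLC tends to be higher there. The counts of bile duct markers higher with CLC may therefore be partly set by the filter. Krt19, a keratin of bile ducts, had -1.59 and -1.37 with CLC against -4.21 and -3.87 without, a difference of 2.56 ± 0.50 (SE, n = 2 each; limma, adjusted p = 0.999). Of 8 macrophage markers, 6 were higher with CLC than without (43.1% of all features), with a median of 0.80, and 7 with a median of 0.44 without the tumour with CLC replicate 1. Timd4 and Cd163 were well above background on only 4 arrays, so the filter may have shaped these counts too. The summed signal of the bile duct markers was 62.5 and 113 with CLC, 45.6 and 30.7 in CLC-free Epcam-derived tumours, and 6.32 and 39.9 in Albumin-derived tumours. Of the 10, 6 were well above background on all arrays. Most of that sum came from Spp1 on every array, so it does not summarise the 10 markers. Spp1 had 5.88 and 6.73 with CLC, 5.41 and 4.81 in CLC-free Epcam-derived tumours, and 1.99 and 5.20 in Albumin-derived tumours. The hepatocyte sum was 3099 and 2260 with CLC, 2951 and 2398 in CLC-free Epcam-derived tumours, and 4776 and 4046 in Albumin-derived tumours. It was higher in both Albumin-derived tumours than in the other 4. The part of these cells in the results was not tested.

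Across the 10 genes, signal over the 6 arrays correlated with the median profile of the group at 0.53 (Srebf1) to 0.97 (Acly), a description that 1 array dominates. Among 4705 other genes well above background on all arrays and with an SD of at least 0.5, 35 (0.744%) reached a Pearson correlation of 0.9 or more with that profile (n = 6 arrays, which share their scaling). The 8 most alike were Cercam (0.978), Slc16a7 (0.970), Cntnap1 (0.966), Gm10190 (0.964), Mfsd2a (0.954), Onecut1 (0.948), Fabp3 (0.947) and Zfp219 (0.945). Mfsd2a, a carrier of lysophosphatidylcholine, had the widest range, with 4.55 and -2.27 with CLC, 0.13 and -3.78 in CLC-free Epcam-derived tumours, and -1.28 and -2.53 in Albumin-derived tumours. Onecut1, a liver transcription factor, had 2.54 and 1.30 with CLC, 1.39 and 0.75 in CLC-free Epcam-derived tumours, and 1.61 and 1.54 in Albumin-derived tumours. Each of the 8 was highest on the tumour with CLC replicate 1. This follows from how they were chosen, because the profile they were matched to peaks on that array.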

How the data were processed

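Frozen tissue of 6 tumours gave 0.1 µg of Cy3-labelled RNA input each, per the labels' protocols. Per the file headers, Agilent Feature Extraction 11.5.1.1 (protocol GE1_1105_Oct12) made the deposited spot intensity values, and the processed signal is not scaled between arrays. The authors' table of intensity per probe was that signal times 1 factor per array (1.64 to 2.42), the same for all its probes. What set the factors is not given in the sources used here. Other deposited columns are marks of each spot (above background, saturated, outlier).

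Control and outlier spots were left out, log2 was taken and each array's 75th percentile over 59305 non-control spots was subtracted. Spots of a probe were averaged. Probes well above background (at least 0.5 of their spots) on both arrays of any group were kept, 34776 in all. Accessions were matched to RefSeq symbols (GRCm38.p6, names only, since the array design is annotated on mm9). The brightest probe stood for a gene, giving 27412 features. All 6 arrays entered 1 limma 3.58.1 fit (R 4.3.3) with a coefficient per group, 3 residual and 2.62 prior degrees of freedom, and two-sided p-values adjusted by Benjamini-Hochberg over all features. The fit was tested on simulated data. Values after ± are SE. SE comes from the spread pooled over all 6 arrays.

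The 10 genes and the lists were chosen with earlier results of these data known. Named neighbours are those with the smallest p in a list and comparison, plus Mlxipl, Insig1 and Pklr (1 gene of the rule is not reported here), the first 3 of each marker list and the 8 genes most alike in profile. Others are said to be chosen after their values were seen. Normexp used the median spot signal. Alternatives were background correction, scaling, filter, probe rule, the authors' table, the arrays entered, a variance trend, slide, a replicate block and each array left out. List counts without the tumour with CLC replicate 1, and single-tumour values of each probe, were added after seeing the data.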

Additional observations from a re-analysis of the deposited data

How the results depend on the processing

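0 of the 10 genes passed limma's threshold in any comparison under any of the 18 alternatives. With against without CLC, in Epcam-derived tumours, the median log2 difference of the 10 genes (1.06) stayed between 1.01 and 1.09 under the background, scaling, filter, probe and variance alternatives. It was 0.20 within slide or with slide as a block, and 0.20 to 1.89 with 1 array left out. In both slide settings Srebf1 was -0.061 and Thrsp -0.49. With 1 array left out, Srebf1 ran from -0.061 to 0.76, Pnpla3 from -0.14 to 4.43 and Thrsp from -0.49 to 2.35.

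For CLC-free Epcam-derived against Albumin-derived tumours, slide as a block, which rests on the tumours with CLC, moved the median (-0.35) to 1.24. It gave Acaca 0.017, Acacb 2.89, Acly 1.21, Scd1 1.14, Elovl6 1.27 and Srebf1 0.055. Scd1 was 0.16 with quantile normalisation and 0.023 with the authors' table, and Acacb was 0.047 with that table and 0.41 with the mean of passing probes. With 1 array left out, Acacb ran from -1.89 to 1.36, Scd1 from -0.87 to 0.29, Pnpla3 from -3.54 to 1.03 and Thrsp from -0.27 to 0.96. Features called (67, of which 16 were higher and 51 lower) numbered 135 with normexp, 102 with quantile normalisation, 110 with the mean of passing probes and 129 (63 higher, 66 lower) with the authors' table. They numbered 34 with only the arrays of the comparison, 32 with a filter on all arrays, 11 with the replicate block, 1 with no filter and 0 with slide as a block, and 0 to 16 with 1 array left out.

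Between tumours with CLC and Albumin-derived tumours the median (0.85) was 1.61 within slide or with slide as a block, which rest on replicate 1, and -0.12 to 1.61 with 1 array left out. Acaca (-0.00) was 0.056 with normexp, 0.062 with the percentile over probes above background on all arrays, 0.36 with quantile normalisation, 0.32 with the authors' table, 0.17 with the mean of passing probes and 0.60 within slide or with slide as a block. With 1 array left out it ran from -0.61 to 0.60, Acacb from -0.10 to 3.05, Acly from -0.15 to 1.47, Scd1 from -0.10 to 1.33, Elovl6 from -0.14 to 1.76 and Thrsp from -0.14 to 2.69. Features called (17) numbered 66 with normexp and with quantile normalisation, 39 with only the arrays of the comparison and with a variance trend, 1 with no filter, and 0 within slide, with slide as a block, with the replicate block and with any 1 array left out. Replicate numbers were not taken as pairs. Correlations of same-numbered deviations between groups were -0.16, 0.06 and 0.23 across features. With 1 deviation per group these cannot show whether samples were paired. The replicate block left every difference of the 10 genes at its value and changed no call among them. Causes of these shifts were not tested, beyond the arrays that each block or omission leaves.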

Other observations

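Several genes of lipid droplets and fatty acid handling outside the synthesis pathway shared its highest array, and were chosen after their values were seen. Cidea, a droplet protein of brown fat and steatotic liver, had 5.83 and -2.57 in Epcam-derived tumours with CLC, -2.88 and -5.94 in CLC-free Epcam-derived tumours, and 2.80 and -0.88 in Albumin-derived tumours, with 1 array not well above background. Cidec, a lipid droplet protein that hepatocytes also make in fatty liver, had 6.999 and 3.95 with CLC, 1.22 and 1.104 in CLC-free Epcam-derived tumours, and 0.91 and -0.99 in Albumin-derived tumours. Both of its tumours with CLC lay above the other 4. Fads2, the first desaturase of polyunsaturated fatty acid synthesis, had 4.13 and 2.29 with CLC, 3.18 and 1.16 in CLC-free Epcam-derived tumours, and 3.59 and 2.09 in Albumin-derived tumours, so replicate 1 was the higher tumour in every group. Acss2, which activates acetate, was instead ordered by origin, at 3.75 and 3.73 with CLC, 3.59 and 3.34 in CLC-free Epcam-derived tumours, and 2.75 and 1.37 in Albumin-derived tumours. None of these passed limma's threshold over all features in the 3 comparisons.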
